A study of Gallus gallus with 6 samples.

Results

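miR-22 was measured as 2 entries, the mature miRNAs gga-miR-22-3p and gga-miR-22-5p (below without the species prefix), in small RNA libraries of leg muscle from Xinghua chicken, a breed of Gallus gallus. They were found by name, as every entry of the deposited tables called miR-22 with an arm suffix, and are 2 of 846 entries, of which 534 carry a miRBase-style chicken name and 312 a provisional identifier. The libraries came from birds of 3 ages, and the labels name no treatment of the birds. E11 stands for day 11 of embryonic life and E16 for day 16, while P1 chicks were 1 day post hatch. Each age had 2 samples, all labelled female. miR-22 was chosen because its counts were known from these libraries to be higher at each later age, so its levels by age are given as a description, without a test.

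A miRNA is cut from one or other side, or arm, of a hairpin precursor, and the retained arm guides an Argonaute protein to messenger RNAs that pair with bases 2 to 8 of the miRNA, the seed, which lowers their output. miR-22 is conserved among vertebrates and is abundant in heart and skeletal muscle. In mouse it accumulates as myoblasts differentiate, and in mouse heart it is known to repress Hdac4 and Sirt1, regulators of transcription. In the RefSeq annotation of chicken (GRCg7b) the MIR22 gene lies within the span of TLCD2, and WDR81 is the next gene on one side. That build is not the one named for these files, galGal4, so no positions are given.

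The libraries held between 303556 and 2641042 counts, and both E11 libraries (303556 and 589154) were shallower than the rest. Whether samples of one age are different birds is not stated in the labels, so their spread may be technical. P1 replicate 2 stood apart in miR-2954, a miRNA of the chicken Z chromosome that is higher in males than in females: it had 8672 CPM there, against 307 to 437 CPM in the other 5 libraries, although all 6 are labelled female. Values of the arms of miR-22 that rest on P1 are therefore also given without that library. Striated muscle miRNAs were present in every library, as the list of miR-1, miR-133, miR-206 and miR-499 entries took between 1.04% and 15.4% of the counts.

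miR-22-3p was the dominant arm and one of the most abundant miRNAs of the muscle. At E11 it had 8303 and 21324 counts. The E16 libraries held 71077 and 56350, and the P1 libraries 199258 and 147275. As a share of all counts, it took 2.74% of E11 replicate 1 (Wilson 95% interval 2.68 to 2.79) and 3.62% of E11 replicate 2 (3.57 to 3.67). It took 5.91% (5.87 to 5.95) and 5.94% (5.89 to 5.99) of the E16 libraries, and 7.54% (7.51 to 7.58) and 6.69% (6.66 to 6.72) of the P1 libraries. No library of one age overlapped with a library of another, and the intervals, which cover counting error only, were narrower than the gap between the replicates at E11 and at P1.

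Counts were also scaled to CPM, counts per a common library total, by TMM, a method that sets the libraries so that most miRNAs keep the same level. On this scale the E11 libraries had 24250 and 30743 CPM of miR-22-3p, those of E16 56806 and 58188 CPM, and those of P1 85897 and 83248 CPM. Mean levels (± SD, n = 2) were 27497 ± 4591 CPM for E11, 57497 ± 977 for E16 and 84572 ± 1873 for P1. The order of the ages was E11, E16, P1, and each step was larger than the spread between replicates, at 6.53 times the larger SD from E11 to E16 and 14.5 times from E16 to P1. In shares of counts the second step was 1.97 times the larger SD. Each SD rests on n = 2 samples whose spread may be technical. Since miR-22-3p was chosen for this order of the ages, these multiples are a description and no test. In 9 pairs of entries the counts were equal within 10% or 3 counts in every library, so that the same reads may be listed under both names, and neither arm of miR-22 was in such a pair.

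Among the 289 entries tested for a difference between ages, 38 (13.1%) were in the rising order of miR-22-3p with no overlap between ages in CPM, and 21 (7.27%) in shares of counts, miR-22-3p among them on both scales. Of the 38, 30 carried a name, and 13 of these had a mean of at least 1000 CPM. Among the 13, miR-2954 reached that mean only through its 8672 CPM in P1 replicate 2, as the other libraries had 307 to 437 CPM. miR-22-3p had the highest mean level of the 30 named ones, at 56522 CPM over the 6 libraries, with miR-133a-3p next at 49863 CPM. The order of these was not the same at every age, as the means of miR-133a-3p were 3383 CPM at E11 and 103769 CPM at P1, below and above miR-22-3p.

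The libraries of an age were also compared with each other. Those of miR-22-3p differed by 0.34 on the log2 CPM scale at E11, 0.03 at E16 and 0.05 at P1. The median difference of the 62 named miRNAs with a mean of at least 1000 CPM, miR-22-3p included, was 0.59, 0.15 and 0.36 at the same ages. Of the 62, 19 had a smaller difference than miR-22-3p at E11, 8 at E16 and 2 at P1. Averaged over the 3 ages its difference was 0.14, and 1 of the 62 had a smaller one. These values hold on the TMM scale. The P1 libraries had 85897 and 83248 CPM of miR-22-3p but less alike shares of counts, 7.54% and 6.69%. Being chosen for rising at each age favours an entry with close replicates, so the place of miR-22-3p among the 62 is a description only.

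The other arm, miR-22-5p, was rare. The E11 libraries held 6 and 11 counts of it, the E16 libraries 33 and 48, and the P1 libraries 94 and 107. In CPM these were 17.5 and 15.9 for E11, 26.4 and 49.6 for E16, and 40.5 and 60.5 for P1. The E11 libraries were below all others, while E16 and P1 overlapped and differed in mean by 0.764 times the larger SD. There were between 1174 reads of miR-22-3p per read of miR-22-5p, in E16 replicate 2, and 2154, in E16 replicate 1.

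The share of the 5p arm among miR-22 reads is a ratio that no scaling touches. It holds the miR-22-3p counts on which miR-22 was chosen, so it is not independent of that choice. Its means (± SD, n = 2) were 0.0619% ± 0.0146 for E11, 0.0658% ± 0.0274 for E16 and 0.0599% ± 0.0180 for P1. The ages overlapped in this ratio. An exact two-sided permutation test gave p = 1 for each of the 3 pairs of ages (adjusted p = 1 over the 3 by Benjamini-Hochberg), in a design whose smallest possible p is 0.333. That smallest p is above the threshold of 0.05, so the test could not have called a difference. The interval of E11 replicate 1 ran from 0.0331% to 0.157%, so a difference of a few times in arm usage was not detectable there. Without P1 replicate 2 the P1 value was 0.0472%, and both P1 libraries lay within the range of the E16 libraries.

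**Figure D1:**
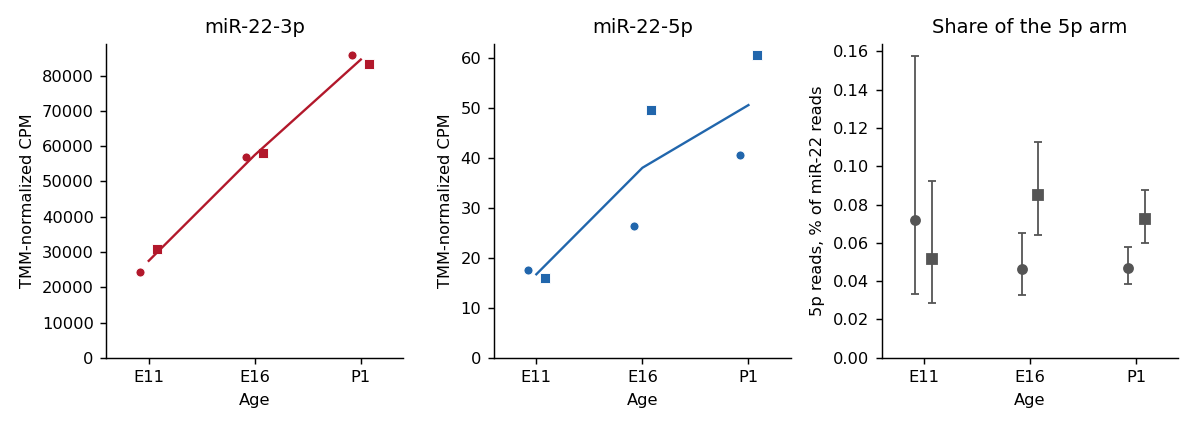
Levels of miR-22-3p and miR-22-5p in TMM-normalized CPM and the share of the 5p arm among miR-22 reads, by age, with circles for replicate 1, squares for replicate 2, lines through the means of the 2 samples and bars for Wilson 95% intervals. miR-22-3p went from 24250 to 30743 CPM at E11 to 83248 to 85897 CPM at P1 while the 5p share overlapped between ages.

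Ranked by counts among named miRNAs, miR-22-3p was the fifth in both E11 libraries, the third in both E16 libraries, and the first and the second in P1 replicates 1 and 2. Mature miRNAs are of nearly equal length, so no correction for length was made, and differences in how well each sequence is captured in a library were not measured. With the provisional entries included, it ranked 10 in both E11 libraries, 6 and 5 at E16, and 3 and 4 at P1. Some provisional entries may list the same reads as a named miRNA, among them miR-10b-5p and miR-181a-5p. The ranks among all entries may therefore count such miRNAs more than once. The rank was higher at each later age in both orders.

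The neighbours in rank changed with age. In E11 replicate 1 the named miRNA just above it was let-7f-5p, a let-7 miRNA of the kind that builds up as cells differentiate, with 8611 counts, and in E11 replicate 2 it was miR-181a-5p, which is described in myoblast differentiation, with 21586 counts. By mean CPM 4 named miRNAs were above miR-22-3p at E11, namely miR-10b-5p, miR-148a-3p, miR-10a-5p and miR-181a-5p. For miR-10a-5p this rested on E11 replicate 2, with 93330.2 CPM, since its 12845 CPM in E11 replicate 1 were fewer than those of miR-22-3p. At E16, 2 of these 4 were still above it, miR-148a-3p and miR-10b-5p. At P1 none of the 4 was, and the 1 named miRNA above it was the muscle miRNA miR-133a-3p.

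The margins at P1 differed between the libraries. In P1 replicate 1 the next named miRNA below was miR-148a-3p, with 89.0% of the counts of miR-22-3p. In P1 replicate 2 it was again miR-148a-3p, with 99.8%, and miR-133a-3p stood above with 167% of the counts of miR-22-3p. Without P1 replicate 2, miR-22-3p was the most abundant named miRNA at P1, with 85897 CPM, and miR-133a-3p had 68326 CPM.

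**Figure D2:**
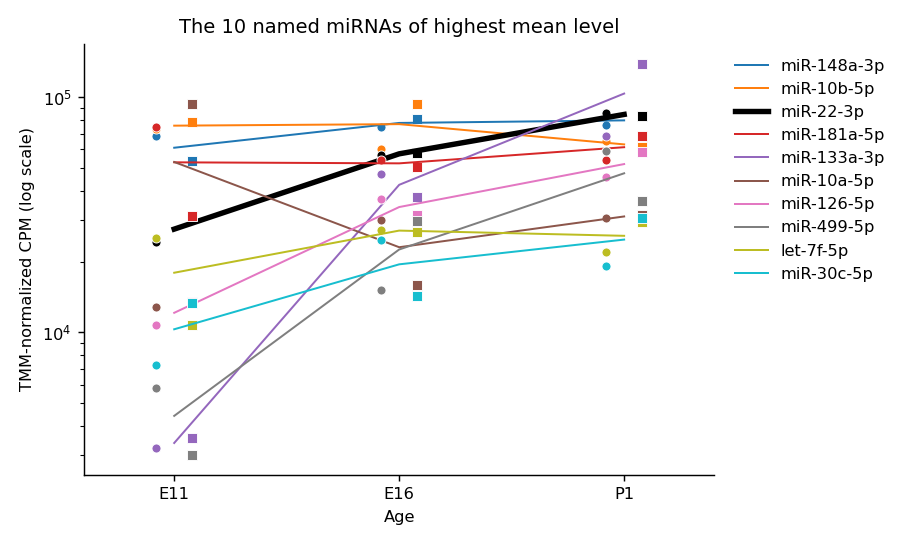
TMM-normalized CPM, on a log axis, of the 10 named miRNAs with the highest mean level, by age, with circles for replicate 1, squares for replicate 2 and lines through the means of the 2 samples (miR-22-3p in thick black). By the means, miR-22-3p passed miR-181a-5p by E16 and miR-10b-5p and miR-148a-3p by P1, miR-10a-5p was above it in E11 replicate 2 alone, and miR-133a-3p went from 3383 CPM at E11 to 103769 CPM at P1.

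Differences between ages were estimated with edgeR over all 289 entries tested. miR-22-3p was 2.09-fold higher at E16 than at E11, a log2 fold change of 1.06 (SE 0.29), with 2 samples per age. It was 1.47-fold higher at P1 than at E16 (0.56, SE 0.28) and 3.08-fold higher at P1 than at E11 (1.62, SE 0.29). These 3 comparisons share samples and are not independent. Leaving out P1 replicate 2 gave 0.58 for P1 against E16 and 1.70 for P1 against E11.

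The size of these differences depends on the scale. With libraries scaled by their totals alone, miR-22-3p was 1.86-fold higher at E16 than at E11, 1.2-fold higher at P1 than at E16 (0.26, SE 0.28), and 2.24-fold higher at P1 than at E11. The median of all 289 entries moved with the scale too, from 0.09 under TMM to -0.21 under totals for P1 against E16, and from -0.15 to -0.62 for P1 against E11. Relative to that median, miR-22-3p stood at 0.47 and 0.48 for P1 against E16 and at 1.77 and 1.78 for P1 against E11 under TMM and under totals. For E16 against E11 it stood 1.09 above the median under both.

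For miR-22-5p the log2 fold change was 1.18 (SE 0.58) for E16 against E11, 0.41 (SE 0.52) for P1 against E16 and 1.60 (SE 0.57) for P1 against E11. Each lay within 1 SE of the value of miR-22-3p, and the SE of the rarer arm was larger in every pair of ages. With P1 replicate 2 dropped, miR-22-5p had 0.10 for P1 against E16 and 1.34 for P1 against E11. Its value for P1 against E16 turned to -0.05 when E16 replicate 1 was dropped and was 0.80 when E16 replicate 2 was. No direction is therefore given for this arm in that pair of ages. Whether the turn came from its few counts or from the spread between replicates was not tested.

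For P1 against E11, 47 of the 289 entries had a higher log2 fold change, and so had 5 of the 20 named miRNAs of highest mean level. For E16 against E11, 40 of the 289 and 3 of the 20 were higher, and for P1 against E16 72 of the 289 and 6 of the 20. As background, the quasi-likelihood test of edgeR, adjusted by Benjamini-Hochberg with a threshold of 0.05, called 6.57% of the entries in either direction for E16 against E11, 0% for P1 against E16 and 30.4% for P1 against E11. For P1 against E16, 37 entries had an unadjusted p under 0.05, and DESeq2 called 2 and limma 0. For P1 against E11 the calls were 41 higher and 47 lower under TMM, and 20 higher and 64 lower when libraries were scaled by totals alone. Since miR-22-3p was chosen on these contrasts, these counts describe its place and are no test of it.

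**Figure D3:**
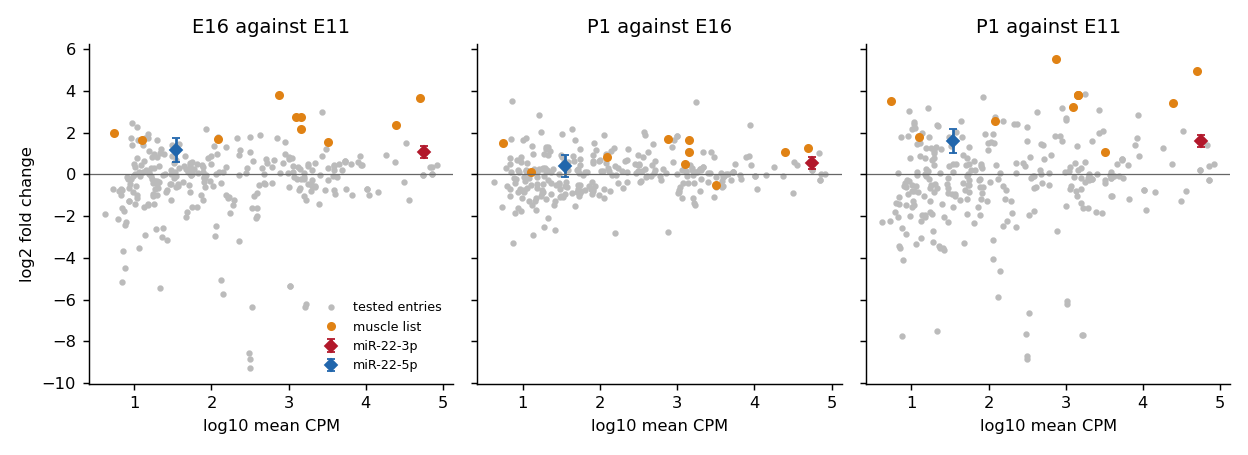
Log2 fold change against log10 of the mean CPM for the 289 entries tested, in each pair of ages, with grey points for entries, orange points for the muscle list and diamonds with SE bars for the arms of miR-22. Both arms had log2 fold changes of 1.60 to 1.62 for P1 against E11, below those of most of the muscle list, at mean levels far apart.

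Most of the miRNAs enriched in striated muscle had larger differences than miR-22-3p. Of 13 listed entries of miR-1, miR-133, miR-206 and miR-499, 10 passed the filter on low counts. For P1 against E11, 8 of these 10 rose and none fell in edgeR's test, against 14.2% of all tested entries called higher, and their median log2 fold change was 3.47, against -0.15 for all entries. The 8 were miR-133a-3p, miR-133a-5p, miR-133b, miR-133c-3p, miR-1a-2-5p, miR-1a-3p, miR-499-3p and miR-499-5p. Of these, miR-1a-2-5p passed the filter on low counts only through P1 (0 and 1.44 CPM at E11, 11.6 and 11.9 at P1). Its higher values at P1 are therefore no support, and its value at E11 rests on few reads. For E16 against E11, 5 of 10 rose and none fell, against 2.42% of all entries called higher and 4.15% called lower, with a median of 2.26. Fewer of the list passed in each fit with 1 library left out, which has 1 sample at an age. Calls over all entries tested were also fewer in each of these fits. For P1 against E16 none passed in edgeR, DESeq2 or limma, with a median of 1.09. In edgeR 5 were higher with an unadjusted p under 0.05, where 37 of all 289 entries had such a p in either direction. The log2 fold change was above that of miR-22-3p in 10 of the 10 for E16 against E11, in 7 for P1 against E16 and in 9 for P1 against E11. The exception for P1 against E11 was miR-206, with 1.06, and miR-206 had -0.51 for P1 against E16. The counts and medians of the list include miR-1a-2-5p and miR-1a-1-5p. The latter passed the filter only through E16 and P1 (5.84 and 4.33 CPM at E11), so its values against E11 are no support either. The calls of the list for P1 against E11 were likewise fewer in each fit with 1 library left out, as were those over all entries tested.

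Counts of miR-22-3p set against those of a muscle miRNA in the same library need no scaling. miR-133a-3p, which with miR-1 marks differentiated striated muscle, was outnumbered by miR-22-3p 7.53 and 8.67 to 1 in the E11 libraries, 1.2 and 1.55 to 1 at E16, and 1.26 to 1 in P1 replicate 1. In P1 replicate 2 the ratio was 0.598. E11 was apart from the later ages, and E16 and P1 overlapped.

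For miR-1a-3p the ratio was 519 and 1066 at E11, where miR-1a-3p had 16 and 20 counts, 129 and 93.8 at E16, and 92.2 and 33.5 at P1. The 3 ages did not overlap, although E16 replicate 2 and P1 replicate 1 were nearly equal. For miR-499-5p, which is processed from an intron of a myosin gene of slow muscle, it was 4.16 and 10.2 for the E11 libraries, 3.74 and 1.95 for those of E16, and 1.46 and 2.31 for those of P1, with E16 and P1 overlapping.

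miR-206, a muscle miRNA of the same list, did not share this order. The ratio of miR-22-3p to it was 14.7 and 19.8 in the E11 libraries, 14.4 and 10.4 in those of E16, and 47.7 and 17.1 in those of P1. P1 and E11 overlapped, and the high P1 mean came from replicate 1. Against miR-148a-3p, an abundant miRNA that is not muscle-specific, the ratio was 0.355 and 0.572 in the E11 libraries, 0.761 and 0.719 in those of E16, and 1.12 and 1.00 in those of P1, with no overlap between ages. The mean levels of miR-148a-3p were 61035, 77810 and 79798 CPM in the order of age. Like the other ratios, this one holds the miR-22-3p counts on which miR-22 was chosen, so it is not independent of that choice.

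**Figure D4:**
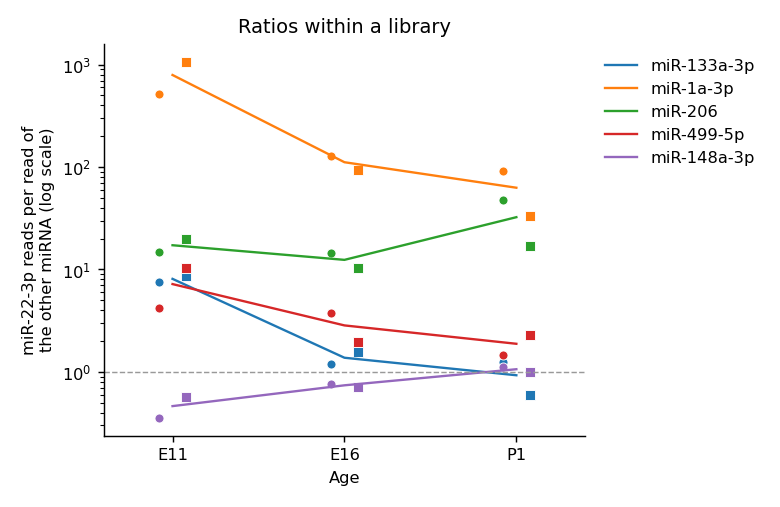
Reads of miR-22-3p per read of another miRNA in the same library, on a log axis, by age, with circles for replicate 1, squares for replicate 2, lines through the means of the 2 samples and a dashed line at equal counts. Against miR-133a-3p, miR-1a-3p and miR-499-5p the mean ratio was lower at each later age, and against miR-148a-3p it was higher, from 0.463 at E11 to 1.06 at P1.

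A further list held miRNAs described in myoblast proliferation or differentiation, mostly in mouse (miR-26, miR-27, miR-29, miR-30, miR-181, miR-214, miR-221 and miR-222). Of its 30 entries 21 were tested, and for P1 against E11 5 rose (14.2% of all entries were called higher) and 3 fell (16.3% were called lower). The 5 were miR-27b-3p, miR-30a-5p, miR-30b-5p, miR-30d and miR-30e-5p, and the 3 were miR-181a-3p, miR-181b-5p and miR-222a. The list's median log2 fold change was 0.78, against -0.15 for all entries, and 5 of the 21 had a value above that of miR-22-3p. Of these 5, miR-29a-3p (2.16) and miR-29b-3p (1.79) passed the filter on low counts only through P1, so their values are no support. Scaling by totals alone left 2 that rose and 3 that fell, against 20 and 64 over all entries. Calls of the list were fewer in most fits with 1 library left out, each of which has 1 sample at an age. Calls over all entries were fewer there too. None of the 21 passed in edgeR in the other pairs of ages, where 4 for E16 against E11 and 4 for P1 against E16 had an unadjusted p under 0.05. Over all 289 entries tested these counts were 70 and 37. DESeq2 called 1 and 0 of the list, against 38 and 2 of all entries.

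The profile of miR-22-3p over the 6 libraries was compared with those of the 198 other named miRNAs tested, by the root mean square difference of log2 CPM after each was centred on its mean. The 6 most alike were miR-15a (0.22 on the log2 scale), miR-193a-5p (0.24), miR-126-5p (0.25), miR-23b-3p (0.25), miR-30a-5p (0.29) and miR-1a-1-5p (0.29), against a median of 0.88 over the 198. miR-15a, of a family known to restrain the cell cycle, had mean levels (± SD, n = 2) of 447 ± 199, 895 ± 167 and 1344 ± 215 CPM in the order of age. miR-126-5p, from a gene of endothelial cells, had 12112 ± 1957, 34133 ± 3771 and 52009 ± 9070 CPM. Of the 6, only miR-126-5p was among the 10 most abundant named miRNAs. miR-1a-1-5p and miR-193a-5p were rare, with means of 5.08 and 14.5 CPM at E11. Their log2 values there rest on few reads, so their likeness to miR-22-3p is uncertain. miR-22-5p came at place 13, with 0.33.

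The set of nearest miRNAs was not fixed. Ranked by Pearson's r over the same libraries, which ignores the size of a change, 2 of the 6 were shared, miR-126-5p (r = 0.98) and miR-30a-5p (r = 0.98), and the highest r belonged to miR-3523 (0.99). Leaving out E11 replicate 1 kept 2 of the 6, E11 replicate 2 kept 3, and P1 replicate 2 kept 5. The 6 points share their library depths and scaling, and 25 of the 198 miRNAs had an r above 0.9.

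Among named miRNAs with a mean of at least 1000 CPM, the most opposite profiles were those of miR-455-5p (r = -0.99), miR-130b-3p (-0.96) and miR-205a (-0.96). miR-455-5p, described in cartilage, had 2847 ± 595, 1226 ± 55.6 and 935 ± 162 CPM in the order of age (SD, n = 2). miR-205a, an epithelial miRNA, had 6408 and 3552 CPM at E11, 83.1 and 49.6 CPM at E16, and 43.5 and 3.39 CPM at P1.

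**Figure D5:**
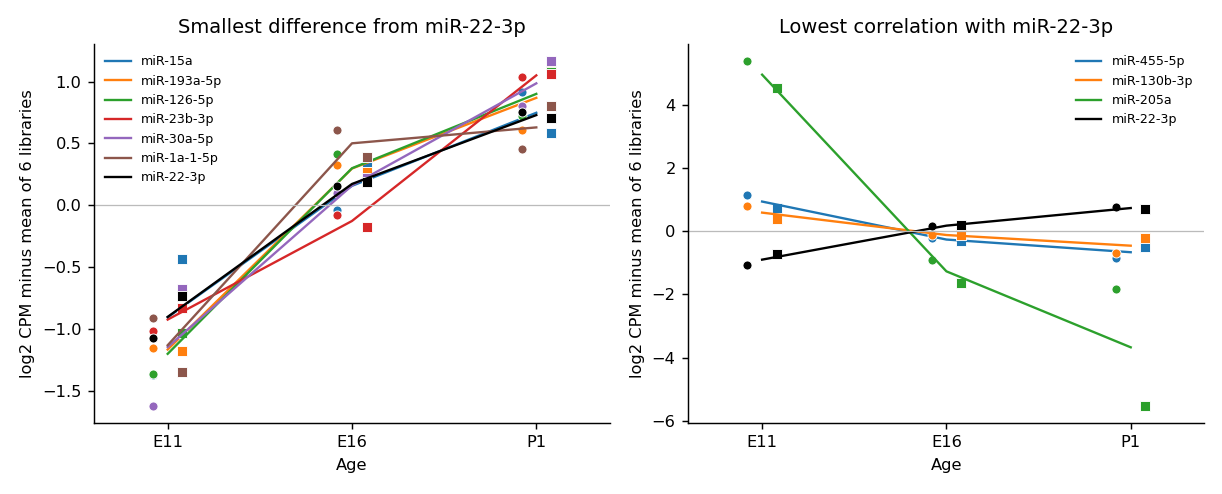
Log2 CPM minus the mean over the 6 libraries for miR-22-3p (black) with the 6 named miRNAs that differed least from it and with the 3 of lowest correlation, by age, with circles for replicate 1, squares for replicate 2 and lines through the means of the 2 samples. The 6 lay within root mean square differences of 0.22 to 0.29 of miR-22-3p, and miR-205a had a far wider range than any of them.

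Some markers of other cell types differed between ages, while others overlapped. In whole muscle, fewer cells of a type and less RNA per cell cannot be told apart. The 2 endothelial entries, both arms of miR-126, took 1.55% to 2.18% of the counts at E11, 3.77% to 4.84% at E16 and 5.04% to 5.96% at P1, in the same order as miR-22-3p. The 8 epithelial entries (of the miR-200 family with miR-429, and of miR-205 and miR-203) took 1.18% to 1.21% at E11, 0.0158% to 0.0447% at E16 and 0.00309% to 0.0997% at P1. The 3 erythroid entries (miR-144 and miR-451) took 0.347% to 0.395%, 0.285% to 0.631% and 0.622% to 3.05%, with the highest value in P1 replicate 1. Both arms of miR-140, the cartilage list, took 0.103% and 0.0173% in the E11 libraries, 0.00516% and 0.00675% at E16, and 0.0101% and 0.00572% at P1, and miR-455-5p, whose levels are given above, is not in that list. The 4 leukocyte and 4 neural entries took at most 0.0706% and 0.0115% of any library, and E16 and P1 overlapped in both. No marker entry was at 0 in all libraries. The part of these cells in the level of miR-22-3p was not tested.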

How the data were processed

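Small RNA libraries of leg muscle were used, 2 per age. The submitters' processing notes name galGal4 and the tools Trim Galore, Bowtie, TopHat and Cufflinks, with no role or version. How reads were assigned to miRNAs is not stated there. The labels describe RNase R treated, ribosomal RNA depleted RNA, and what this meant for miRNA libraries is not given. Each deposited value was taken as a read count of a mature miRNA, although the file headers call the column FPKM: all were whole numbers, 1 was the most frequent value in every file, and totals differed between samples. If they were rounded normalized values, the count tests would not suit them. An entry missing from a file was given 0.

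Tests used edgeR 4.0.16 under R 4.3.3 (filterByExpr with minimum count 10 and total 15, TMM, quasi-likelihood F-tests, 1 coefficient per age, 3 residual degrees of freedom, two-sided, Benjamini-Hochberg over the 289 entries tested, threshold 0.05). SE is the log2 fold change divided by the square root of F. The fit was also run on simulated counts with less spread between replicates than these data have. That run does not measure missed or false calls at the spread seen here. DESeq2 1.42.0 and limma 3.58.1 (on log2 of scaled value + 1, with libraries scaled by their totals) served as alternatives. Wilson intervals and exact permutation tests used scipy 1.17.1. Replicates differed far beyond sampling noise (chi-square per degree of freedom 264, 171 and 489 at E11, E16 and P1), so each was kept.

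miR-22, the lists and the tests were chosen with earlier results of these data known. The rule for named miRNAs took the arms of miR-22, the 6 nearest and 3 most opposite profiles (log2 CPM with prior count 2), rank neighbours and muscle entries that passed. The miRNAs that miR-22-3p passed in level, miR-148a-3p as a ratio partner, and miR-2954 were chosen after their values were seen. Seeds and provisional sequences were not compared, as no sequences were used here.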

Additional observations from a re-analysis of the deposited data

How the results depend on the processing

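miR-22-3p was higher at each later age under all 15 other settings of the fit, but it had been chosen for that order, and the direction of miR-22-5p for P1 against E16 did turn (-0.05 without E16 replicate 1). For P1 against E11 the log2 fold change of miR-22-3p was 1.16 with column totals only, 1.18 in limma and 1.94 without the filter on low counts. For P1 against E16 it was 0.26 with column totals only and 0.26 in limma, and for E16 against E11 it was 1.35 without the filter. The limma fit also scaled libraries by their totals, so these 2 settings share their scaling. Leaving out 1 library gave 1.02 to 1.23 for E16 against E11, 0.45 to 0.58 for P1 against E16 and 1.52 to 1.77 for P1 against E11. Its share of counts at E11, E16 and P1 was 5.36%, 9.48% and 10.7% of named counts, 8.08%, 14.7% and 16.7% without the other 10 most abundant entries, and 3.87%, 7.06% and 8.15% with entries that carry the same reads counted once. Without the muscle list it was 6.42% at E16 and 8.24% at P1. With 1 library of an age left out it was 2.74% to 3.62%, 5.91% to 5.94% and 6.69% to 7.54%. Its mean rank among all entries, some of which may list the same reads, was 10, 5.5 and 3.5 (5, 3 and 1.5 among named ones).

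The number of entries called for E16 against E11 was 19 of 289 in the main fit and 38 of 289 in DESeq2. It was 46 of 846 without the filter and 12 of 196 with named entries only. It was 9 of 276 without the muscle list (a setting added after seeing the data), and 0 to 11 with 1 library left out. Settings that tested different numbers of entries cannot be compared by these counts alone. For P1 against E16 the number called was 0 of 289 in edgeR, where 37 had an unadjusted p under 0.05, and 2 of 289 in DESeq2. It was 13 of 846 without the filter, 1 of them in the muscle list, and 0 to 1 with 1 library left out. For P1 against E11, 88 in all, it was 10 to 61 with 1 library left out. Muscle entries called were 0 to 4 for E16 against E11, 0 for P1 against E16 and 3 to 6 for P1 against E11 with 1 library left out. With the replicate number as a block, 30 were called for P1 against E11 and miR-22-3p had 1.63. The labels give no shared batch, so the numbers were not taken to pair samples. Deviations of same-numbered samples correlated at -0.02 for E11 with E16, -0.03 for E11 with P1 and 0.33 for E16 with P1. Whether same-numbered libraries of E16 and P1 share a factor was not tested. In each case the cause was not tested. Depth limits miR-22-5p, with 17 counts over the E11 libraries.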
